A study of Saccharomyces cerevisiae with 4 samples.

Results

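The yapsins of budding yeast (Saccharomyces cerevisiae) were examined as a family of 5 genes: YPS1 (YLR120C), MKC7 (YDR144C, also called YPS2), YPS3 (YLR121C), YPS6 (YIR039C) and YPS7 (YDR349C). They were taken by their reading frame names from 6207 frames in the deposited table. A value on all 4 arrays was held by 3 of the 5, YPS1, MKC7 and YPS3. YPS7 had a value on 1 array and YPS6 on 0 arrays. The cells were an slt2 mutant, which lacks the last kinase of the pathway that guards cell wall integrity, grown in rich glucose medium (YEPD) at 24 °C. Each culture was divided, so that cells with zymolyase, a wall-digesting enzyme preparation added at 5 units per ml, were set against untreated cells of the same culture, with collection at 3 h. By the titles and the series' design, both sides of every comparison carried the slt2 mutation, and the arrays form no wild type group. RNA from 2 cultures was hybridised to 4 two-colour arrays, with zymolyase RNA in Cy3 on arrays 1 and 3 and in Cy5 on arrays 2 and 4.

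Yapsins are aspartic proteases held at the cell surface by a glycosylphosphatidylinositol (GPI) anchor, and they cleave proteins next to basic residues. They process or shed other surface proteins, and cells without them have weakened walls. In wild type yeast, wall stress acting through Slt2 is known to raise YPS1 transcription. The arrays measured transcripts, not protease activity or shedding.

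The direction of the deposited ratio is not stated. Across genes, the correlation between arrays with swapped dyes was negative (r between -0.60 and -0.29), and the values were therefore read as ratios of dyes and turned to one orientation. Positive values below lie on the side of HSP12, a stress protein gene, and negative values on the side of TIP1, a wall mannoprotein gene. If the ratio was Cy3 over Cy5, the HSP12 side is higher with zymolyase than in untreated cells, and if it was Cy5 over Cy3, it is lower. The base of the logarithm was taken as 2. The deleted gene SLT2 had a value on 0 arrays, so it gave no check of the labels, and on array 3 the label of the zymolyase channel names the wild type while its title names the mutant. With 4 arrays, precision is limited throughout.

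YPS1 and YPS3 changed on the HSP12 side, while MKC7 stayed close to 0 and was not called. That is 2 of the 3 measurable yapsins at an adjusted p under 0.05 (limma), where 4.55% of all 4788 genes with a value on all 4 arrays were called, 4.34% on the HSP12 side.

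YPS1 encodes the best studied yapsin, known to shed the surface mucin Msb2 and to process the glucan-remodelling enzyme Gas1. Its log2 ratios were 0.92, 1.35, 1.92 and 1.74 on arrays 1 to 4. All 4 arrays lay on the HSP12 side, with array 1 lowest. The mean was 1.48 ± 0.44 (SD, n = 4), a 2.80-fold difference (limma, adjusted p = 4.54e-06). It ranked 62nd of the 4788 genes toward that side. With the 4 arrays as separate replicates the adjusted p of YPS1 was 0.00109, and with the culture as a random block 0.00148 (limma). On each array alone, at most 2.22% of the genes with a value were as far or further toward the HSP12 side. The mean was 1.54 over the arrays with zymolyase RNA in Cy5 and 1.42 over those with it in Cy3, so both dye orientations gave a similar size. Without array 3, the array with the conflicting label, the mean was 1.34 (limma, adjusted p = 8.82e-06), and the call held whichever array was left out. The adjusted p was larger without array 1, 2 or 4 (0.0153, 0.0104 and 0.0061, limma).

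YPS3 encodes a yapsin of the same family, and its gene lies directly beside YPS1 on chromosome XII. Its log2 ratios were 0.56, 1.67, 1.06 and 1.76 on arrays 1 to 4. All 4 again lay on the HSP12 side, with both arrays that carried zymolyase RNA in Cy5 above both that carried it in Cy3. The mean was 1.26 ± 0.56 (SD, n = 4), or 2.40-fold (limma, adjusted p = 1.93e-05), ranking 88th. With the 4 arrays as separate replicates the adjusted p of YPS3 was 0.00666, and with the culture as a random block 0.0113 (limma). By dye orientation the means of YPS3 were 1.71 (Cy5) and 0.81 (Cy3), a dye difference of 0.90. Over all genes the absolute dye difference had a median of 0.24 and a 95th percentile of 0.78, so that of YPS3 was among the largest. With a term for the dye in the model, which took the 4 arrays as separate replicates, the adjusted p was 0.00155 (limma). In this balanced swap the term cannot change the mean, and it only takes the dye difference out of the spread. Leaving out array 2 ended the call (mean 1.13, adjusted p = 0.0595), while without array 1, 3 or 4 it held.

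MKC7 encodes the yapsin closest in known function to YPS1, and both can stand in for the Kex2 processing protease when overproduced. Its log2 ratios were -0.35, -0.25, -0.10 and 0.25 on arrays 1 to 4. It lay on the TIP1 side on 3 arrays and on the HSP12 side on array 4, below every value of YPS1 and YPS3. The mean was -0.11 ± 0.26 (SD, n = 4; limma, adjusted p = 0.918), against a median of -0.06 over all genes. The 95% confidence interval ran from -0.59 to 0.37 with arrays 1 and 2 taken as a culture, and from -0.34 to 0.11 with arrays 1 and 4 taken as one. A 2-fold difference toward either side lay outside both intervals. The first interval rests on a variance pooled over all genes, not on the spread of MKC7 alone. The corresponding intervals were 1.01 to 1.96 and 1.24 to 1.73 for YPS1, and 0.78 to 1.74 and 1.03 to 1.49 for YPS3.

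**Figure D1:**
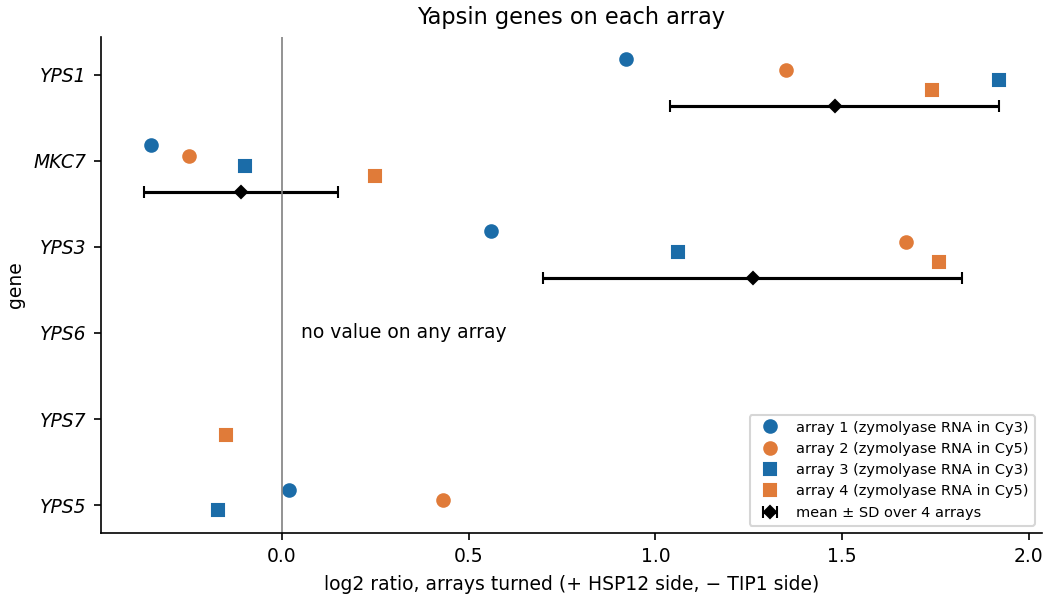
Log2 ratio of each yapsin gene and of the short yapsin-like frame YPS5 on each array (horizontal axis, HSP12 side positive, 1 row per gene). Colour marks the dye of the zymolyase RNA, and diamonds with bars are means ± SD over 4 arrays. YPS1 and YPS3 lie right of 0 on all 4 arrays and MKC7 lies around 0.

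The remaining family members gave little or no measurement. YPS7 had a log2 ratio of -0.15 on array 4 alone, and 9 of the 6207 frames shared this pattern of a single value on array 4. YPS6 was among the 632 frames (10.2%) without a value on any array. An empty cell states no level, since no source used here gives the filter that emptied it. YPS5 (YGL259W), a short yapsin-like frame of 498 bases beside 1527 to 1791 bases for the 5 yapsins, had 0.02, 0.43 and -0.17 on arrays 1 to 3, on both sides of 0. Fitted with genes measured on at least 3 arrays, it had a mean of 0.09 (limma, adjusted p = 0.990).

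The distance between YPS1 and MKC7 was similar from array to array. YPS1 exceeded MKC7 by 1.27, 1.60, 2.02 and 1.49 on arrays 1 to 4, with a mean of 1.60 ± 0.32 (SD, n = 4). YPS3 exceeded MKC7 on all 4 arrays as well, by 0.91, 1.92, 1.16 and 1.51, with a mean of 1.37 ± 0.44. YPS1 and YPS3 did not keep an order. YPS1 was ahead by 0.36 and 0.87 on arrays 1 and 3, YPS3 by 0.32 and 0.02 on arrays 2 and 4, and the mean of YPS1 minus YPS3 was 0.22 ± 0.51, within the spread between arrays. An exact two-sided sign-flip permutation test over 4 arrays cannot go below p = 0.125, and it takes the arrays as independent although they come from 2 cultures. In that exact test both differences from MKC7 reached this smallest value (adjusted p = 0.188 over 3 pairs), and YPS1 minus YPS3 had p = 0.50.

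The 3 yapsins differed in how far they ranked within the arrays. MKC7 had 90.6% of genes at or above it toward the HSP12 side on array 1, 76.6% on array 2, 50.0% on array 3 and 31.2% on array 4. YPS3 had 5.28% and 5.40% on arrays 1 and 3, and 0.847% and 1.72% on arrays 2 and 4. YPS1 kept between 1.32% and 2.22% on all 4. The plot of means over all genes places YPS1 and YPS3 in the upper tail and MKC7 at the centre.

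**Figure D2:**
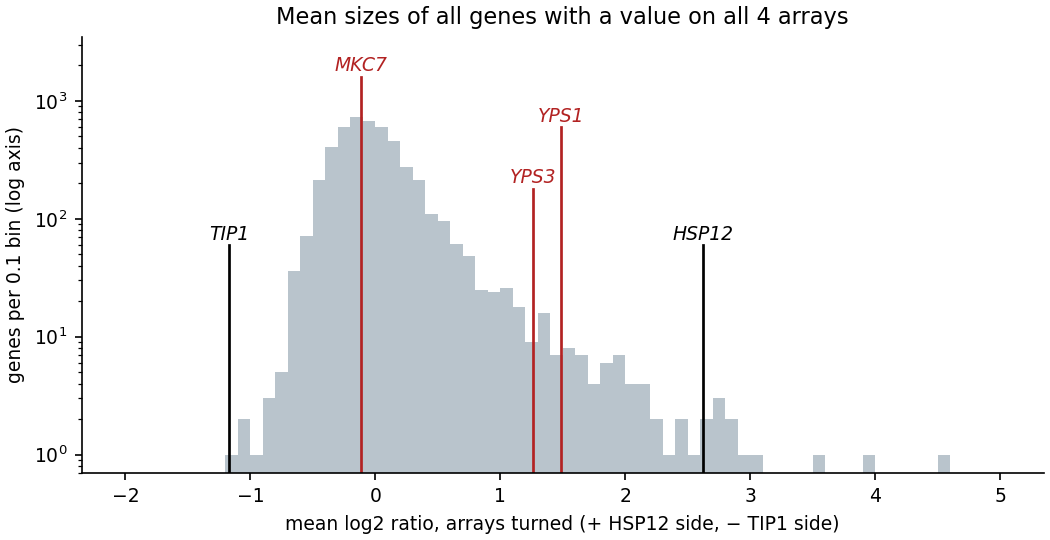
Mean log2 ratio over 4 arrays (horizontal axis, HSP12 side positive) of all 4788 genes with a value on all 4, as genes per bin of 0.1 on a log axis. Vertical lines mark YPS1 (1.48), YPS3 (1.26) and MKC7 (-0.11), and HSP12 (2.63) and TIP1 (-1.17), which name the sides.

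For all 3 measurable yapsins, the mean of arrays 3 and 4 lay further toward the HSP12 side than that of arrays 1 and 2. YPS1 averaged 1.83 on arrays 3 and 4 and 1.14 on arrays 1 and 2, YPS3 1.41 and 1.12, and MKC7 0.07 and -0.30. Over all genes, the median absolute difference between these pairs of arrays was 0.28. Values also spread more widely on arrays 3 and 4 (SD over genes 0.642 and 0.63) than on arrays 1 and 2 (0.356 and 0.45). All 5 yapsin genes are longer than the median coding length of 1218 bases among tested genes. With a trend of coding length removed from each array, YPS1 had a mean of 1.36 (limma, adjusted p = 0.0135), YPS3 1.15 (adjusted p = 0.0133) and MKC7 -0.25 (adjusted p = 0.291). The calls were the same as without this step, although the count over all genes was then 100 in place of 218.

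The genes next to the yapsins were compared with them, since YPS1 and YPS3 are neighbours. On the other side of YPS1 lies SRN2, an endosomal sorting gene, with values of 0.08, -0.21, -0.45 and -0.56 over the 4 arrays, averaging -0.28 (adjusted p = 0.750). YLR122C, beyond YPS3, had a value on 0 arrays. The YPS1 and YPS3 pair was 1 of 16 pairs with both genes called on the HSP12 side, among 3424 pairs of adjacent tested genes (0.467%), a count made after the values were seen. Beside MKC7, the ubiquitin ligase gene SAN1 had a mean of 0.26 ± 0.60 and the transcription factor subunit gene TAF12 -0.11 ± 0.22, both uncalled. Beside YPS6, GTT1, a glutathione transferase gene, had 0.71 ± 0.48 (adjusted p = 0.0695), and PAU15 had 0.10 and -1.01 on arrays 1 and 3 and no value on the others. Beside YPS7, PAL1 had -0.31 ± 0.28, uncalled. Whether the spots of YPS1 and YPS3 bind each other's transcripts was not tested, since no source used here gives the spots' sequences.

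Likeness to each yapsin was measured as the Euclidean distance between log2 ratios over the 4 arrays. The genes nearest to YPS1 were GUT2, the mitochondrial glycerol 3-phosphate dehydrogenase gene (distance 0.50), DAK1, a dihydroxyacetone kinase gene (0.56), and the retrotransposon frame YCL020W (0.57). GUT2 had 0.75, 1.06, 1.59 and 1.59 on arrays 1 to 4, with the lowest value on array 1 as in YPS1. YCL020W was not called once array 1 was left out (adjusted p = 0.0652) or the length trend was removed (0.0807). YPS3 was the 26th nearest to YPS1 (distance 0.99) of 4787 genes, and MKC7 stood at place 2384 (3.24). Nearest to YPS3 were YNR014W (0.27), RCR1, which encodes an endoplasmic reticulum protein linked to chitin deposition (0.54), and the vacuolar aminopeptidase gene APE1 (0.76). YNR014W had 0.53, 1.76, 0.83 and 1.67 on arrays 1 to 4, with the same order of dye orientations as YPS3, and it also lost its call without array 2 (adjusted p = 0.0832). Such likenesses, as that of GUT2 to YPS1, follow from the choice of genes by distance over the same values. Nearest to MKC7 were the histone methyltransferase gene DOT1 (0.07), the tRNA methyltransferase gene TRM44 (0.11) and DSF1 (0.13), all uncalled.

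Both called yapsins stood high among other known targets of the cell wall integrity pathway, while most of those targets were not called. Of 23 measured targets other than yapsins, 6 changed, all with a mean on the HSP12 side (26.1%, against 4.34% of all genes on that side, limma), and 22 had a mean on that side, with a median of 0.43. This list and those below were chosen with earlier results of these data known, so their shares are descriptions and test nothing. A gene that was not called is not thereby shown to be unchanged. Only CWP1, a wall mannoprotein gene (1.83 ± 0.51), and PUN1, a plasma membrane protein gene (1.59 ± 0.58), lay above YPS1 in this list, and SED1 (1.35 ± 1.19), named after its values were seen, came between YPS1 and YPS3. PRY2, encoding a secreted sterol-binding protein, had 1.08 ± 0.23, and NCW2, a wall protein gene, 0.92 ± 0.16. CWP1, PUN1 and PRY2 kept their calls whichever array was left out. NCW2 was no longer called once array 1 (adjusted p = 0.0670) or array 2 (0.0544) was left out, and SED1 once array 1, 2 or 4 was (0.0802, 0.536 and 0.153). SED1 had 2.01, 1.88, -0.43 and 1.97 on arrays 1 to 4, opposite in side on array 3. It lost its call under 8 of 14 alternatives, among them a random culture block (adjusted p = 0.103). Under that block 5 of the 23 targets were called (21.7%, against 3.17% of all genes). Without array 1, or without array 2, the count was 3. The share of all genes called was 1.59% without array 1 and 2.19% without array 2.

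Of 12 measured proteases in the list for the secretory pathway and vacuole, 4 changed on the HSP12 side (33.3%, against 4.34% of all genes on that side), with a median of 0.36. This list, too, was chosen with earlier results of these data known. PRB1, the vacuolar proteinase B gene, had 1.81 ± 0.35 and lay above YPS1. PEP4, the vacuolar aspartic protease gene, had values of 0.71, 0.77, 0.77 and 0.84 over the 4 arrays, averaging 0.77 ± 0.05 (adjusted p = 0.0371). No set of 3 arrays kept this call (adjusted p between 0.0512 and 0.151). The carboxypeptidase gene ATG42 had 0.77 ± 0.12 (adjusted p = 0.0388), lost without array 1, 2 or 3 (adjusted p from 0.0834 to 0.138). CPS1, also a carboxypeptidase gene and named after its values were seen, averaged 1.06 ± 1.29 and lay at -0.31, on the opposite side, on array 3. It was uncalled once array 2 or array 4 was left out (adjusted p = 0.512 and 0.753), with a mean of 0.50 without array 4, and under 6 of 14 alternatives in all, among them a random culture block (adjusted p = 0.221). APE3, an aminopeptidase gene, had 0.50 ± 0.21 and was not called. Also named after their values were seen, KEX2, the Golgi processing protease gene, had 0.01, -0.16, -0.06 and -0.17, and BAR1, a secreted aspartic protease gene, had a mean of 0.08 ± 0.19. With the length trend removed 2 of the 12 were called (2.18% of all genes), as with genes measured on at least 3 arrays (4.15%), without array 1 (1.59%) and without array 4 (2.99%), and 1 was called without array 2 (2.19%).

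The machinery that makes and remodels the GPI anchor, which yapsins carry, showed 1 call in 20 measured genes (5.00%, near the 4.55% of all genes), and its median was -0.12. That gene was BST1, the GPI inositol deacylase, with values of 0.62, 0.96, 2.49 and 1.76 over the 4 arrays. It averaged 1.46 ± 0.84 (adjusted p = 1.77e-05), and missed the threshold with the length trend removed (adjusted p = 0.0571). GUP1, an acyltransferase gene of anchor remodelling, had -0.27 ± 0.11, and GPI17, a transamidase subunit gene, -0.19 ± 0.26, neither called. Of 10 measured genes for other GPI-anchored enzymes and membrane proteins, 1 was called, where 4.55% of all genes were, and their median was 0.11. It was CRH1, a glucan and chitin transglycosylase gene that is also in the list of pathway targets, with values of 0.36, 0.63, 1.10 and 1.15 over the 4 arrays and an average of 0.81 ± 0.38. It too was uncalled in every set of 3 arrays (adjusted p between 0.0540 and 0.176). DCW1, a putative mannosidase gene, had 0.13 ± 0.20 and was not called. Every measured member of this last list lay below YPS1 and YPS3.

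**Figure D3:**
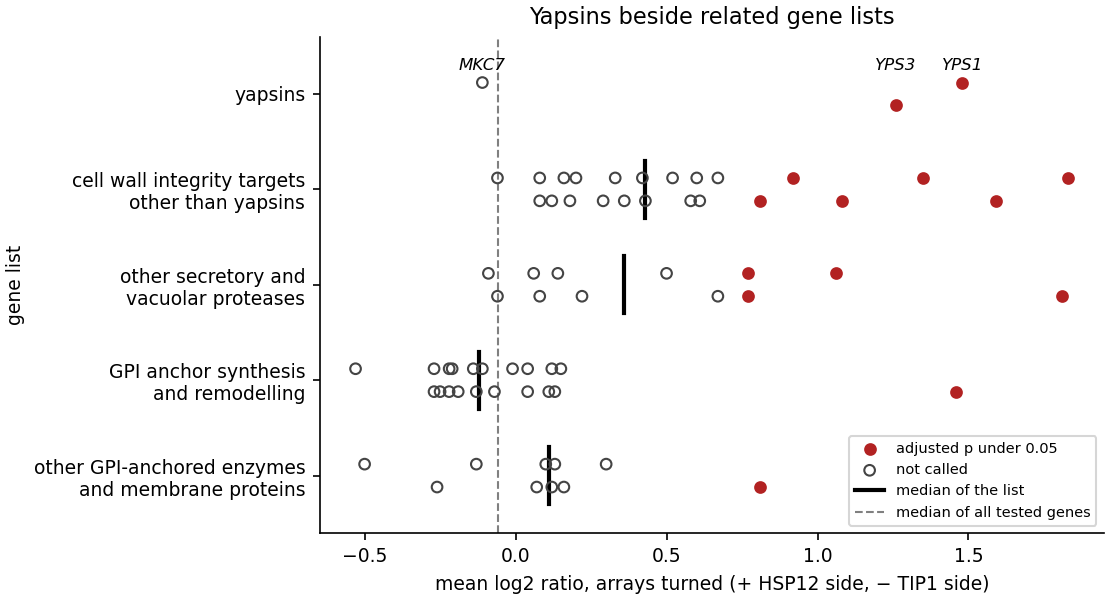
Mean log2 ratio over 4 arrays (horizontal axis, HSP12 side positive) of the 3 measurable yapsins and of each measured member of 4 gene lists (rows, 1 point per gene). Filled points have an adjusted p under 0.05, thick bars are list medians, and the dashed line is the median of all tested genes (-0.06). YPS1 and YPS3 lie with the upper targets of the cell wall integrity pathway, and MKC7 lies near the dashed line.

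The sizes of the 3 yapsins kept their sides under every alternative that could change a mean. These were centring, scaling, removal of the length trend and leaving out an array. The other alternatives change only the p of these genes, so their sides could not change. The negative side of MKC7 carries little, since it was not called under any alternative. Over all alternatives, the mean ranged from 1.34 to 1.67 for YPS1, from 1.10 to 1.50 for YPS3 and from -0.25 to -0.04 for MKC7.

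**Figure D4:**
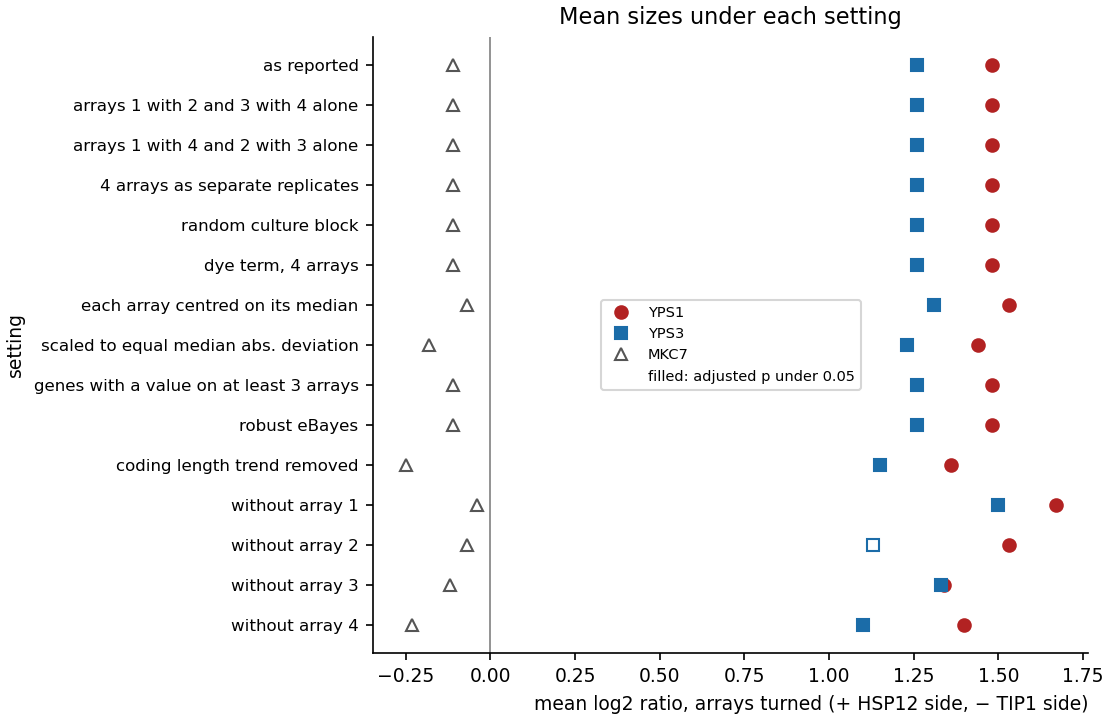
Mean log2 ratio (horizontal axis, HSP12 side positive) of YPS1, YPS3 and MKC7 as reported and under each alternative (rows). Filled symbols have an adjusted p under 0.05. YPS1 is filled in every row, YPS3 in every row except without array 2 (adjusted p = 0.0595), and MKC7 in none.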

How the data were processed

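The authors deposited log ratios between both channels of each array, taken here as log2 by their size. No source used here gives the numerator, background correction, normalization or the filter that emptied cells. Cy3 or Cy5 was built into cDNA during reverse transcription, per the labels' protocols. Without scanner intensities, signal over background could not be assessed. No centring or scaling was added. Medians of the turned values on arrays 1 to 4 were -0.018, -0.046, -0.100 and -0.024, and the authors' scale, centring and direction are unknown.

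From 6209 rows, 2 control spots were left out. Names were matched to the RefSeq gene table of assembly R64 (5677 of 6207, 23 through a synonym). Genes with a value on all 4 arrays entered limma 3.58.1 (R 4.3.3). Since the labels tie no array to a culture, arrays were averaged within culture under 2 pairings (1 with 2 and 3 with 4, or 1 with 4 and 2 with 3). These give each culture both dye orientations, which was assumed. The pairing of 1 with 3 and 2 with 4 was not fitted. Each gene took the larger p of the 2 fitted pairings, adjusted by the Benjamini-Hochberg method over all genes. It need not be the largest over every pairing. The pairing of 1 with 2 and 3 with 4 gave every gene the same standard error of 0.24, from a variance pooled over all genes. Under it, a gene's own spread between cultures did not enter its p. SDs are over arrays, which mix cultures and dyes, while the p-values rest on 2 cultures. The fit was tested on simulated data.

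The members and lists were chosen with earlier results of these data known. Genes named were the members, YPS5, SLT2, HSP12, TIP1, chromosomal neighbours, the 3 nearest patterns per member and up to 4 members per list with the largest size and 1 side on all arrays. Any other gene was picked with its values known, as marked beside it. Sequences were not used here.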

Additional observations from a re-analysis of the deposited data

How the results depend on the processing

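YPS1 kept its call under all 14 alternatives tried, and MKC7 stayed uncalled under the same 14. YPS3 kept its call under 13, and missed it without array 2 (mean 1.13, adjusted p = 0.0595). The means with each array left out in turn ran from 1.34 to 1.67 for YPS1, 1.10 to 1.50 for YPS3 and -0.23 to -0.04 for MKC7. The number of yapsins called was 2 under each of the 11 other alternatives and from 1 to 2 with an array left out. Over all genes the count of 218 became 76, 105, 195 and 143 when array 1, 2, 3 or 4 was left out, 100 with the length trend removed and 1415 with arrays 1 and 4, and 2 and 3, paired alone, where 49.1% of calls lay on the HSP12 side in place of 95.4%. At an unadjusted p under 0.05 there were 551. That pairing alone called 14 pathway targets, 2 genes of anchor synthesis and 2 other GPI-anchored proteins. With the length trend removed (2.18% of all genes called), 2 proteases, 0 genes of anchor synthesis and 0 other GPI-anchored proteins were called. With genes on at least 3 arrays (4.15% of all genes called), 2 proteases were called. Leaving out 1 array gave 3 to 6 of 23 pathway targets (13.0% to 26.1%) and 1 to 3 of 12 proteases (8.33% to 25.0%). It gave 1 of 20 genes of anchor synthesis (5.0%) and 0 of 10 other GPI-anchored proteins each time. Of all genes, 1.59% to 4.07% were then called. The cause of these changes was not tested. A 2-fold difference lay outside both intervals of MKC7, while a difference inside them cannot be told from 0 here. The interval edges are not a limit of detection for other genes. Zymolyase and untreated RNA shared each array, so every value is already a ratio within a culture, and no unpaired fit was made.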
